A study of Homo sapiens with 24 samples.

Results

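The genes described here are HNRNPL and 9 other genes of splicing regulators, HNRNPLL, PTBP1, PTBP2, HNRNPA1, HNRNPA2B1, HNRNPC, HNRNPD, HNRNPU and HNRNPM. They were chosen by gene name from the 58884 genes listed in each expression table, with earlier results of these data known. No threshold on their values was part of the choice, and all 10 were found and passed the filter on low values. RNA was sequenced from HEK293T, a human embryonic kidney cell line, in 10 libraries of 5 groups with 2 libraries each, while 14 further samples of chromatin immunoprecipitation were not analysed here. The first table holds untreated wild-type (WT) cells and untreated cells with a SETD2 knockout (KO). The second table, made separately, holds untreated KO cells, KO cells expressing full-length SETD2 (SETD2 FL) and KO cells expressing SETD2 C, which is labelled N3 and spans residues 1404 to 2564. SETD2 is the methyltransferase that places trimethylation on lysine 36 of histone H3. The constructs carried a tag, were introduced by transient transfection and were driven by a CMV promoter, and the KO libraries are labelled untreated, so the construct and the transfection cannot be told apart in a comparison with KO. Whether the KO cells are 1 clone is not given in the sources used here. Nor do the sources say whether the libraries of a group came from separate cultures, so p-values measure only the spread between these libraries.

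Heterogeneous nuclear ribonucleoproteins (hnRNPs) coat nascent transcripts and, according to where they bind, favour or block the use of nearby exons. hnRNP L, which binds CA-rich RNA, is known as a binding partner of SETD2 through the SHI domain of that protein, and hnRNP LL is its close paralog. The polypyrimidine tract binding proteins PTBP1 and PTBP2 repress exons flanked by pyrimidine-rich stretches, and PTBP1 itself represses the splicing that makes productive PTBP2 mRNA.

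Values are TPM, a transcript level per transcript length and relative to all transcripts of a library, as deposited, or TPM scaled by the median ratio of each library over expressed genes. Read depth is unknown from TPM, so no counting error can be given. The targeted gene SETD2 had a TPM of 12.62 and 14.82 in the WT libraries and 16.19 and 16.31 in the libraries labelled KO of the first table (log2 fold change of WT relative to KO of -0.11, limma with Benjamini-Hochberg adjusted p = 0.408). SETD2 RNA was thus not lower in the libraries labelled KO, TPM summed over a gene does not read the targeted alleles, and which libraries are KO was taken from the labels. SETD2 in the second table stood at 11.99 and 12.15 in KO, 439.26 and 421.96 in SETD2 FL, and 1329 and 1264 in SETD2 C. Gene TPM is divided by annotated transcript length, so the levels of the full-length and the shorter construct cannot be compared from these values. The 7 markers of HEK293T summed to between 705.9 and 1503 TPM in every library. The 12 markers of other cell types summed to 9.45 to 18.0 TPM, with KO at 9.45 and 9.59 and SETD2 C at 18.0 and 16.1, and 9 or 10 of the 12 stayed under a TPM of 1 in each library. Among the defining markers, PTPRC was at most 0.02 and CDH5 at most 0.03. The share of TPM from mitochondrially encoded genes moved with the groups of the second table, at 7.04 and 6.23% for KO, 10.95 and 7.79% for SETD2 FL, and 2.93 and 3.37% for SETD2 C. In the first table it was 23.2 and 14.1% in WT and 12.0 and 12.4% in KO. The part of these shares and of the markers in the results was not tested, except that one alternative leaves the mitochondrial genes out.

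The 10 genes lie on 7 chromosomes of GRCh38 and all are protein-coding. HNRNPL (ENSG00000104824) spans chr19:38836370-38852347 (minus strand), with 13 exons and 2142 nucleotides in the reference transcript. HNRNPU (ENSG00000153187) spans chr1:244840638-244864560 on the minus strand, with 14 exons and 6867 nucleotides. HNRNPM (ENSG00000099783) spans chr19:8444767-8489114 on the plus strand, with 16 exons and 2477 nucleotides. The others are HNRNPLL (ENSG00000143889) at chr2:38561969-38603586, PTBP1 (ENSG00000011304) at chr19:797075-812327, PTBP2 (ENSG00000117569) at chr1:96721665-96823738 and HNRNPA1 (ENSG00000135486) at chr12:54280193-54287088. They further include HNRNPA2B1 (ENSG00000122566) at chr7:26171151-26201529, HNRNPC (ENSG00000092199) at chr14:21209136-21269494 and HNRNPD (ENSG00000138668) at chr4:82352498-82374503.

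The promoters of HNRNPL and HNRNPU are shown because these were the 2 members that passed the test in a comparison. Each is a window of 300 bases around the annotated start, most of it upstream, from RefSeq on GRCh38.p14, at chr19:38852298-38852597 for HNRNPL and chr1:244864494-244864793 for HNRNPU, both 5′ to 3′ on the minus strand. Capitals mark matches, on either strand, to the CCAAT box (CCAAT) and to the core of the GC box (GGGCGG).
HNRNPL: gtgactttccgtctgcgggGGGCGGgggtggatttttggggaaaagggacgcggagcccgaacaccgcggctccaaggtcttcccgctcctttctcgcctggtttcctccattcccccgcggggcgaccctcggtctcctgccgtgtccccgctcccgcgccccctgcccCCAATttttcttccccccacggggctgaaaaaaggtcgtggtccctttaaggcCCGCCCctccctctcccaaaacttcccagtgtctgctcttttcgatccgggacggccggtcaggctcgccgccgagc
HNRNPU: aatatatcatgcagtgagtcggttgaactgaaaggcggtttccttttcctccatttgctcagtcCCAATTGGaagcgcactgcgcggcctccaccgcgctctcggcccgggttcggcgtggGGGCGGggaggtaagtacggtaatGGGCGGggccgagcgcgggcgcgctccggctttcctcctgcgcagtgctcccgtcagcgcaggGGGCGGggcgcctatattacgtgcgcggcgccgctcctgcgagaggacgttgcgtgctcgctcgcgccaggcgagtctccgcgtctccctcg
The HNRNPL window shown held 1 CCAAT match and 2 GC box matches, with 66.3% G or C and 28 CpG. The HNRNPU window held 2 CCAAT matches, which overlap on opposite strands, and 3 GC box matches, with 67.0% G or C and 40 CpG. Neither held the TATA box core (TATAAA) or the ETS core (CCGGAAG). Of all 35116 promoter windows of this length, 34.6% held CCAAT, 11.5% TATAAA and 10.3% CCGGAAG, 15786 held GGGCGG, and their medians were 58.7% G or C and 14 CpG. Of the 10 genes, 9 matched an entry, with 11 windows in all, which ranged from 49.3 to 82.7% G or C and from 11 to 57 CpG. HNRNPA1 had no match. HNRNPL had another window, at chr19:38849937-38850236, which is not shown and held 3 CCAAT and 3 GC box matches.

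In every library HNRNPA1 and HNRNPA2B1, whose proteins are among the best known exon-silencing factors, held the highest or second-highest TPM of the 10 genes, followed by HNRNPC, which binds uridine-rich stretches of nascent RNA. In the second table the order of these 3 was the same in all 6 libraries. HNRNPA1 there ranged from 2757 to 3273 TPM, HNRNPA2B1 from 1491 to 1768 and HNRNPC from 899.35 to 971.88. HNRNPD (AUF1, which binds AU-rich elements) and HNRNPL came next and did not differ in order beyond their spread, since HNRNPD was the higher of the pair in 5 of the 6 libraries and HNRNPL in KO 4. PTBP1 and HNRNPM also changed places among libraries. At the bottom, PTBP2 (22.32 to 24.02 TPM) and HNRNPLL (22.03 to 23.57 TPM) exchanged places and overlapped. The 10 genes together summed to 7505 and 7041 TPM in KO, 6841 and 7642 in SETD2 FL and 7290 and 7843 in SETD2 C.

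**Figure D1:**
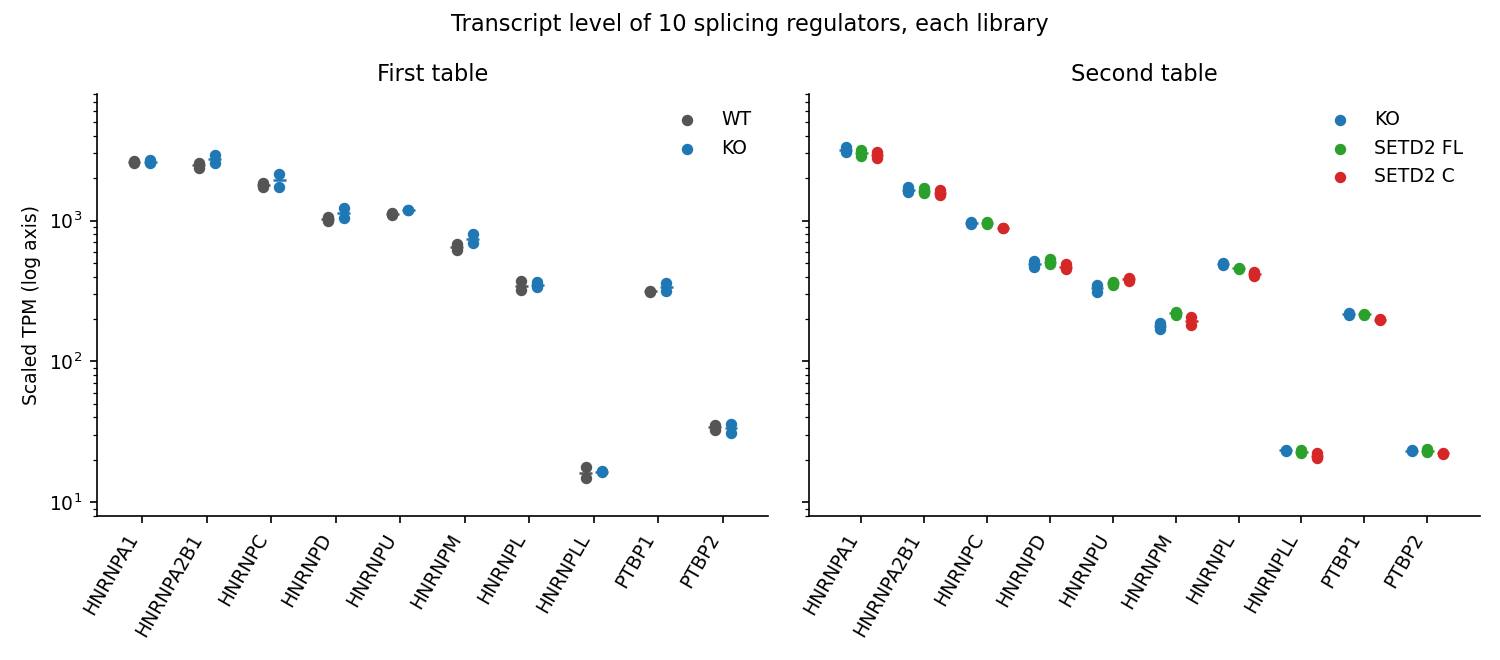
Scaled TPM of the 10 genes on a log axis, with 1 point for each library and a line at the mean of 2 libraries, for WT and KO in the first table (left) and KO, SETD2 FL and SETD2 C in the second (right). HNRNPA1 and HNRNPA2B1 lie highest and HNRNPLL and PTBP2 lowest in both tables, and the groups of a table lie close together for each gene.

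Between SETD2 C and KO, HNRNPL fell and HNRNPU rose, each by less than 2-fold, and the other 8 genes did not pass the test. HNRNPL had a scaled TPM of 479.8 and 498.2 in KO, then 456.3 and 463.4 in SETD2 FL, then 428.6 and 405.1 in SETD2 C. Its 3 groups did not overlap, with KO highest and SETD2 C lowest. The mean was 489.0 ± 13.01 in KO and 416.9 ± 16.6 in SETD2 C (SD, n = 2). The log2 fold change of HNRNPL was -0.23 (SE 0.051, 95% interval -0.35 to -0.11, adjusted p = 0.0113, limma with Benjamini-Hochberg adjustment). The protein of HNRNPU, also called SAF-A, binds RNA and attaches chromatin to the nuclear scaffold. Its transcript had a scaled TPM of 347.5 and 312.5 in KO, 351.5 and 365.7 in SETD2 FL, and 372.0 and 391.1 in SETD2 C. All libraries with SETD2 C lay above the others, and KO was lowest. The HNRNPU log2 fold change of SETD2 C relative to KO was 0.21 (SE 0.063, 95% interval 0.064 to 0.36, adjusted p = 0.0346).

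Genes called at this adjusted p made up 36.2% of the 15929 genes tested in that comparison (21.1% higher and 15.1% lower), against 2 of the 10 members, 1 in each direction. Groups did not overlap for 7 of the 10, against 71.3% of all genes. An unadjusted p under 0.05 was reached by 3 of the 10 and by 47.1% of all genes. The median log2 fold change was -0.09 over the 10 genes and 0.046 over all genes tested. Neither member reached 2-fold, while 4.06% of all genes both passed at this adjusted p and reached 2-fold.

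The remaining members showed small differences between SETD2 C and KO. PTBP1 had a scaled TPM of 214.0 and 219.9 in KO, 213.6 and 217.5 in SETD2 FL, and 195.7 and 198.9 in SETD2 C, so that both SETD2 C libraries lay below the other 4. Its log2 fold change was -0.14 (95% interval -0.25 to -0.027, adjusted p = 0.0545), just above the threshold. PTBP2, the form that predominates in neurons, was at 23.12 and 23.32 in KO, 23.93 and 22.56 in SETD2 FL, and 21.97 and 22.47 in SETD2 C. HNRNPLL, whose protein regulates CD45 splicing in lymphocytes, was at 23.51 and 23.14 in KO, 23.30 and 22.21 in SETD2 FL, and 22.18 and 20.61 in SETD2 C. Their log2 fold changes were -0.06 for PTBP2 (adjusted p = 0.475) and -0.12 for HNRNPLL (adjusted p = 0.189). HNRNPC, at -0.12 with adjusted p = 0.108, had groups that did not overlap, at 882.7 and 890.4 in SETD2 C and 939.3 and 983.9 in KO. HNRNPA1 (-0.13, adjusted p = 0.211), HNRNPA2B1 (-0.06, adjusted p = 0.521), HNRNPD (-0.06, adjusted p = 0.571) and HNRNPM (0.11, adjusted p = 0.285) complete the 10. HNRNPM was the only one of these 8 with a positive value, at 180.5 and 205.6 in SETD2 C and 187.3 and 169.2 in KO, where the libraries overlapped.

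**Figure D2:**
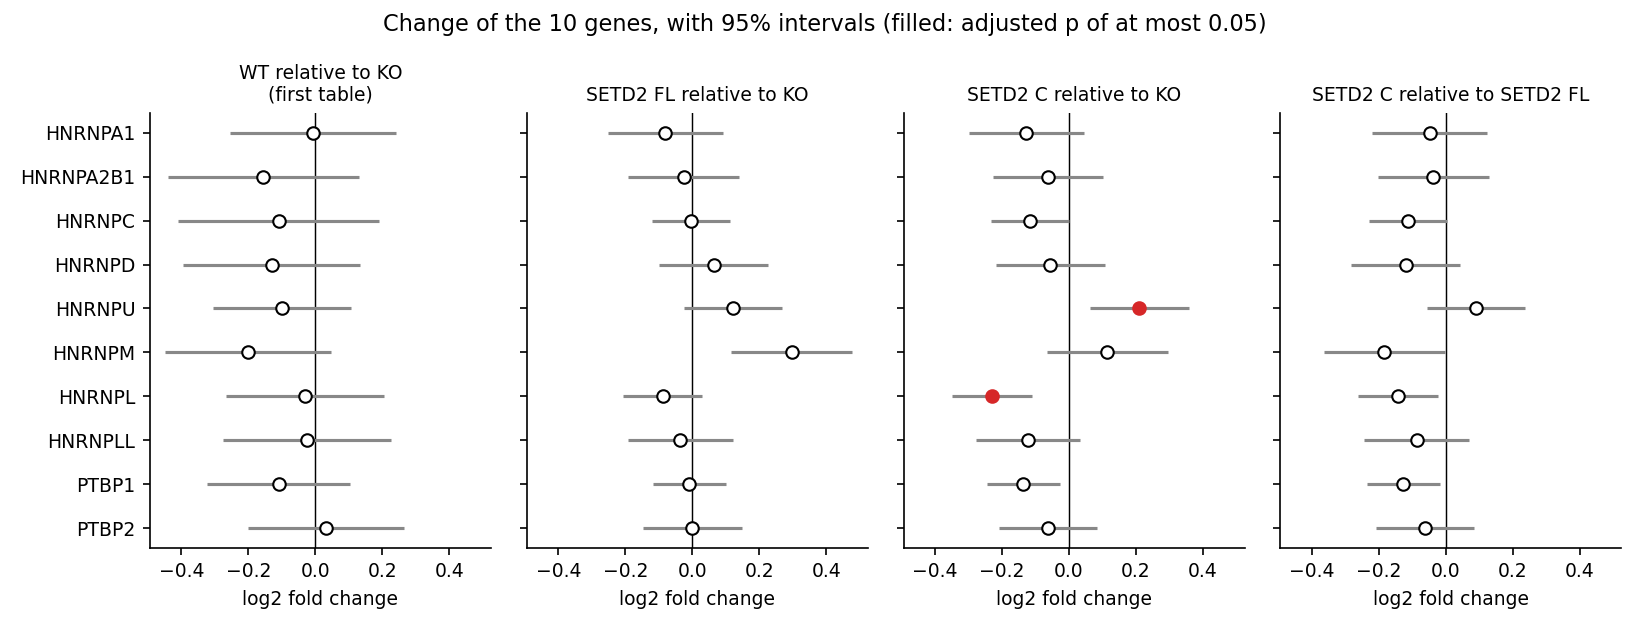
The log2 fold change of each of the 10 genes in 4 comparisons, with 95% intervals from limma and filled points for an adjusted p of at most 0.05. HNRNPL and HNRNPU in SETD2 C relative to KO are the filled points, at -0.23 and 0.21, and no gene approaches a change of 2-fold.

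These calls depended on how libraries were brought to a common scale. With TPM left unscaled, the median over all tested genes in SETD2 C relative to KO was a log2 fold change of 0.181, with 5507 genes higher and 1115 lower against 3357 and 2404 with scaling. HNRNPL then stood at -0.082 with adjusted p = 0.305, below that median. HNRNPU stood at 0.36 without scaling, above the median, and passed the test, as did HNRNPM, at 0.26 with adjusted p = 0.0345, and 9 of the 10 genes were positive. HNRNPL was negative and HNRNPU positive under every setting tried, from -0.27 to -0.082 and from 0.13 to 0.36. HNRNPL passed in 12 and HNRNPU in 11 of 18 settings, the reported one included. The HNRNPL call was lost with quantile normalization (adjusted p = 0.0519) and when TPM was rescaled after leaving out SETD2 and the mitochondrial genes (adjusted p = 0.0655). It was also lost without KO 4 (-0.20, adjusted p = 0.0633) or without SETD2 C 2 (-0.19, adjusted p = 0.0772). The HNRNPU call was lost without KO 4 (0.13, adjusted p = 0.191), without SETD2 C 1 (0.25, adjusted p = 0.0635), and without SETD2 C 2 (0.17, adjusted p = 0.166). With eBayes without trend neither passed, at adjusted p = 0.0535 for HNRNPL and 0.104 for HNRNPU, and HNRNPU also missed the threshold with no filter on low values (adjusted p = 0.0833) and with all gene types (adjusted p = 0.0502).

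The GC content of the transcripts moved with the fold changes of SETD2 C relative to KO, with a median of 0.096 in the fifth of genes with the lowest GC and -0.023 in the fifth with the highest. The reference transcripts of HNRNPL and PTBP1 hold 54.3 and 57.7% G or C and those of HNRNPU and PTBP2 41.8 and 37.2%. After adjustment for GC content, an alternative added after the data were seen, 4 members were called and all were lower: HNRNPL (-0.26), HNRNPLL (-0.23), HNRNPC (-0.21) and PTBP2 (-0.18). HNRNPU then missed the threshold (0.13, adjusted p = 0.154). The part of GC content in these results was not tested further.

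**Figure D3:**
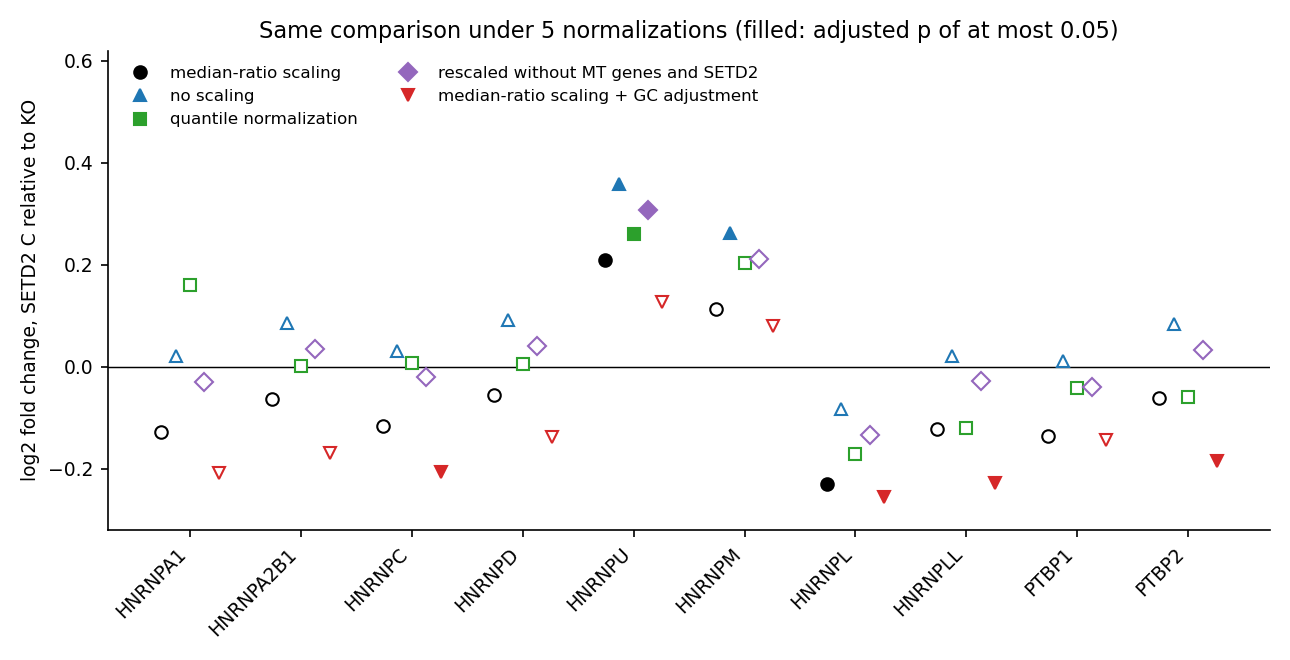
The log2 fold change of SETD2 C relative to KO for each of the 10 genes under 5 normalizations, with filled symbols for an adjusted p of at most 0.05. Unscaled values are the highest of the 5 for every gene but HNRNPA1, which is highest with quantile normalization (0.16), and HNRNPL lies below 0 and HNRNPU above 0 under all 5.

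Between SETD2 FL and KO none of the 10 genes passed the test (limma, adjusted p), and 1 had an unadjusted p under 0.05. Genes that passed made up 0.207% of all those tested, and 15.9% had an unadjusted p under 0.05. The gene was HNRNPM, whose protein takes part in splicing choices of epithelial and mesenchymal cells. It had a scaled TPM of 187.3 and 169.2 in KO, 212.3 and 225.6 in SETD2 FL, and 180.5 and 205.6 in SETD2 C. Both SETD2 FL libraries were the highest of the 6. The log2 fold change of HNRNPM was 0.30 (95% interval 0.12 to 0.48, adjusted p = 0.168, limma with Benjamini-Hochberg adjustment). HNRNPL was at -0.09 (95% interval -0.21 to 0.031, adjusted p = 0.438) and HNRNPU at 0.12 (95% interval -0.025 to 0.27, adjusted p = 0.394). The other 7 genes lay between -0.08 and 0.06. Groups did not overlap for 3 members, against 48.2% of all genes, and the median over the members was -0.01.

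SETD2 C was compared directly with SETD2 FL, a contrast in which both groups were transfected. None of the 10 genes passed the test (limma, adjusted p) and 3 had an unadjusted p under 0.05, where 38.2% of all genes passed (21.4% higher and 16.8% lower) and 48.8% had such a p. The 3 were HNRNPL (-0.14, 95% interval -0.26 to -0.023, adjusted p = 0.0612), PTBP1 (-0.13, 95% interval -0.24 to -0.018, adjusted p = 0.0655) and HNRNPM (-0.18, 95% interval -0.36 to -0.0024, adjusted p = 0.0989). HNRNPU was the 1 member with a positive value, at 0.09 (95% interval -0.058 to 0.24, adjusted p = 0.296). Groups did not overlap for 8 of the 10 genes, against 72.3% of all genes, and the medians were -0.10 over the members and 0.042 over all genes tested. HNRNPU passed the test without scaling (0.22). After adjustment for GC content HNRNPL, HNRNPC and PTBP2 passed and were lower. The fits of SETD2 FL and SETD2 C against KO share the KO libraries.

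Between WT and KO in the first table none of the 10 genes passed the test (limma, adjusted p) and 0 had an unadjusted p under 0.05, where 4.48% of the 14741 genes passed and 24.9% had such a p. HNRNPL was at a scaled TPM of 318.8 and 370.5 in WT and 336.0 and 366.5 in KO, and the groups overlapped. Its log2 fold change of WT relative to KO was -0.03 (95% interval -0.27 to 0.21, adjusted p = 0.878). The largest difference was that of HNRNPM, at 618.0 and 678.7 in WT and 691.7 and 800.3 in KO (-0.20, 95% interval -0.45 to 0.048, adjusted p = 0.279). PTBP1 stood at 313.7 and 313.4 in WT and 362.6 and 315.3 in KO. HNRNPU stood at 1130 and 1093 in WT and 1194 and 1188 in KO. These 3 genes, HNRNPM, PTBP1 and HNRNPU, were those with groups that did not overlap, where 56.9% of all genes had such groups. HNRNPA2B1 was at -0.15, HNRNPD at -0.13, HNRNPC at -0.11, HNRNPLL at -0.02, HNRNPA1 at -0.01 and PTBP2 at 0.03, and the median over the members was -0.10.

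Ratios of 2 genes in a library do not depend on scaling. They were not adjusted for GC content, in which the 2 genes of each ratio differ. The reference transcript of HNRNPLL holds 38.4% G or C against 54.3% in HNRNPL. That of PTBP2 holds 37.2% against 57.7% in PTBP1, and that of HNRNPU holds 41.8%. The part of GC content in the ratios was not tested. The TPM of HNRNPLL was 4.90 and 4.65% of that of HNRNPL in KO, 5.11 and 4.79% in SETD2 FL and 5.17 and 5.09% in SETD2 C, and these groups overlapped for SETD2 FL. The exact two-sided permutation test gave p = 0.333 for SETD2 C against KO, the smallest that 2 against 2 libraries allow. PTBP2 amounted to 10.8 and 10.6% of PTBP1 in KO, 11.2 and 10.4% in SETD2 FL and 11.2 and 11.3% in SETD2 C, again with p = 0.333 for SETD2 C against KO in the exact permutation test. In the first table HNRNPLL was 4.62 and 4.78% of HNRNPL in WT and 4.86 and 4.52% in KO. PTBP2 there was 11.3 and 10.5% of PTBP1 in WT and 8.51 and 11.4% in KO, and exact permutation p-values for WT against KO were 1 for both ratios. The ratio of HNRNPU to HNRNPL was chosen after the values were seen and is given without a test. It was 72.4 and 62.7% in KO, 77.03 and 78.91% in SETD2 FL and 86.8 and 96.5% in SETD2 C, with groups in that order and no overlap. The ratio joins the member called higher with SETD2 C to the member called lower, so the order of SETD2 C and KO followed from the choice. In the first table it was 354.5 and 295.1% in WT and 355.2 and 324.0% in KO, and those groups overlapped.

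Each table has its own libraries of KO cells, and since the tables were made separately their TPM values are set side by side as a description only. For HNRNPM the mean TPM was 780.3 in KO of the first table and 171.4 in KO of the second, and the ratio of first to second was 4.55. HNRNPU had means of 1246 and 317.5 and a ratio of 3.93. HNRNPD and HNRNPC followed with ratios of 2.51 and 2.19. HNRNPL, in contrast, was lower in the first table (367.5) than in the second (470.2), at a ratio of 0.782, and HNRNPLL was at 0.767. Of the 7205 genes at or above a TPM of 10 in all 4 KO libraries, 0.1% had a lower log2 ratio of second to first table than HNRNPM and 0.2% a lower one than HNRNPU. The median log2 ratio was -0.117, with a 5th percentile of -1.02 and a 95th percentile of 0.83.

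**Figure D4:**
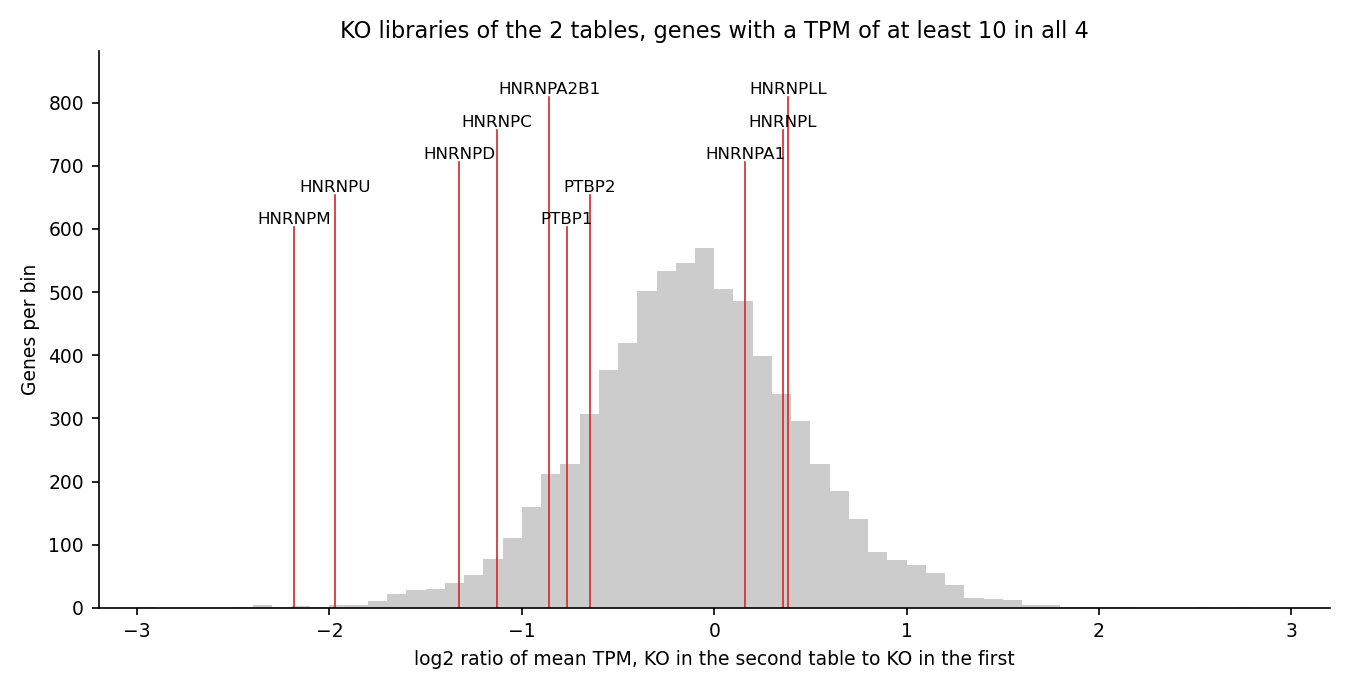
Genes by log2 ratio of the mean TPM in KO of the second table to KO of the first, for the 7205 genes at or above a TPM of 10 in all 4 libraries (grey bars, genes per bin), with red lines for the 10 members. HNRNPM (-2.19) and HNRNPU (-1.97) lie at the left edge of the distribution, and HNRNPL (0.36) and HNRNPLL (0.38) lie right of its median.

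Several members share sequence with other listed genes. HNRNPA1 has 76 listed copies, taken by names that begin with HNRNPA1P or HNRNPA1L, and 43 of them were above 0 in the second table. Their TPM there summed to 51.0 to 83.6, or 1.85 to 2.56% of HNRNPA1. In the first table they summed to 102.5 to 127.9. HNRNPC has 13 copies with 0.518 to 0.939% of its TPM in the second table, and HNRNPL 2 copies with 0.305 to 0.367%. HNRNPU shares 762 exon bases with an antisense lncRNA (ENSG00000273175), which had a TPM of at most 0.68 in the second table. HNRNPL shares 561 with a protein-coding gene on its strand (ENSG00000268083), which had a TPM of at most 0.72 in the second table. The division of shared reads between a gene and its copies was estimated upstream, so these values are uncertain.

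The genes most like HNRNPL across the 6 libraries of the second table, by Pearson correlation of scaled values among 8087 genes with a mean of at least 10, were ACOT7 (r = 0.996), TMCO6 (0.994), C19orf54 (0.994), TALDO1 (0.992) and ZNF580 (0.991). The 6 points share the groups and the scaling, and the values are a description.

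The 19 other hnRNP and related genes of a list written for comparison changed in both directions with SETD2 C. Of them, 5 rose and 3 fell relative to KO, and 5 rose and 3 fell relative to SETD2 FL, at the same adjusted p, which 36.2 and 38.2% of all genes passed. Their medians were -0.08 and -0.06. The split relative to KO was 5 and 2 without scaling and 4 and 8 after GC adjustment, and that relative to SETD2 FL was 8 and 2 without scaling and 4 and 5 after GC adjustment. HNRNPH1 and HNRNPH3, which belong to the hnRNP H/F family of G-run binding proteins, rose by 0.54 (95% interval 0.39 to 0.68, limma adjusted p = 0.000876) and 0.48. HNRNPH1 was at 420.97 and 380.02 in KO and 561.8 and 598.4 in SETD2 C. HNRNPF, of the same family, fell, from 118.3 and 120.4 in KO to 94.61 and 92.89 (-0.35, limma adjusted p = 0.00166). HNRNPAB fell from 271.5 and 257.6 to 191.3 and 187.0 (-0.48, limma adjusted p = 0.000536). These 4 genes passed in all 18 settings. PTBP3, the third PTB paralog, also fell, from 12.92 and 12.96 to 10.65 and 10.73 (-0.26, adjusted p = 0.0299), a call lost in 6 settings with adjusted p-values up to 0.297. HNRNPUL2 and HNRNPR also rose, by 0.46 and 0.24 (limma adjusted p = 0.00308 and 0.0212). With no filter on low values, 4 of the 19 rose in place of 5.

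Relative to SETD2 FL, HNRNPUL2 (0.50), HNRNPH3 (0.46), HNRNPH1 (0.44) and HNRNPR (0.19) rose with SETD2 C. HNRNPUL2, HNRNPH3 and HNRNPH1 passed in all 18 settings. HNRNPR was near the threshold (limma adjusted p = 0.0451), and its call was lost with no filter on low values. HNRNPAB (-0.66), HNRNPF (-0.39) and SYNCRIP (-0.19) fell, SYNCRIP with a call lost in 8 of the 18 settings, among them without scaling (-0.06, adjusted p = 0.515) and without SETD2 FL 4, SETD2 C 1 or SETD2 C 2. HNRNPAB was at 295.9 and 300.7 in SETD2 FL and 191.3 and 187.0 in SETD2 C. None of the 19 passed in SETD2 FL relative to KO, where 3 had an unadjusted p under 0.05 against 15.9% of all genes, or in WT relative to KO, where 4 did against 24.9%.

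**Figure D5:**
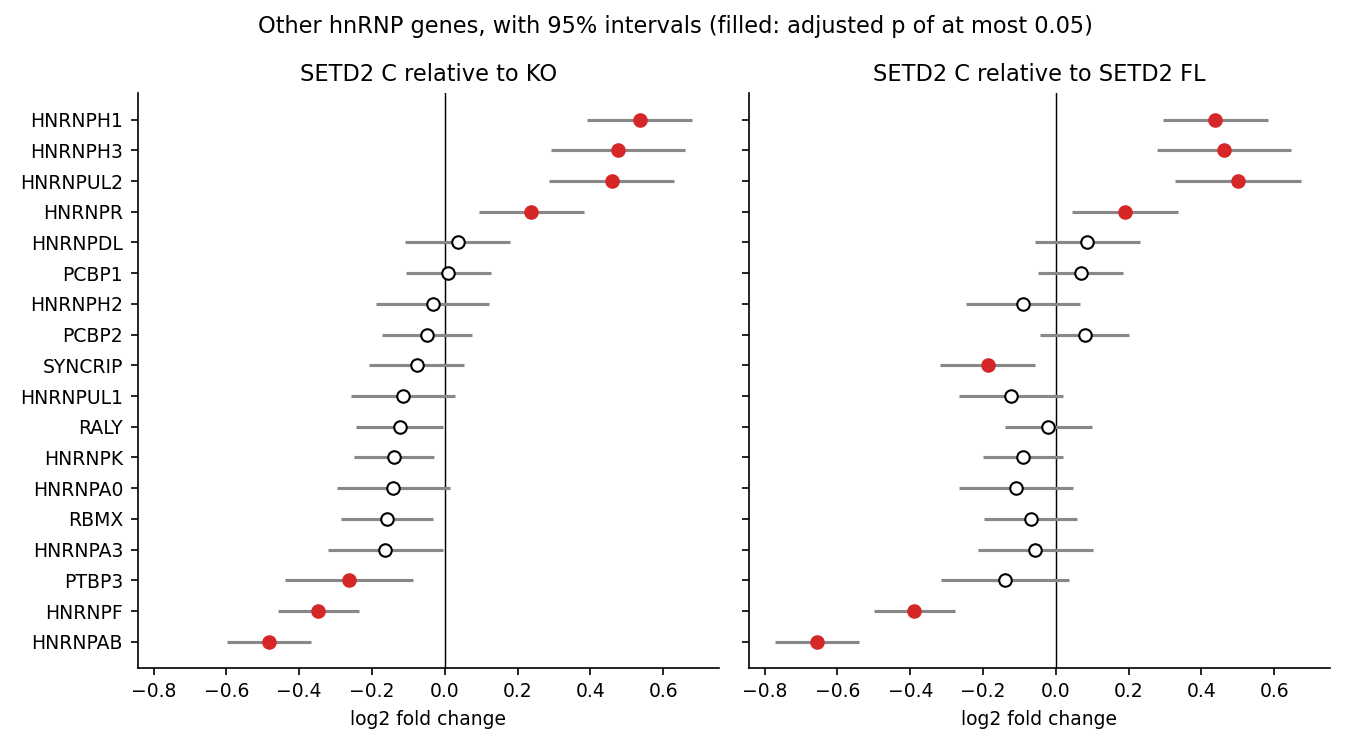
The log2 fold change of 18 of the other hnRNP genes in SETD2 C relative to KO (left) and relative to SETD2 FL (right), with 95% intervals and filled points for an adjusted p of at most 0.05. HNRNPH1 (0.54) is highest and HNRNPAB (-0.48) lowest on the left, and 7 points are filled in each panel.

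Of 30 other splicing regulators outside the SR family, 4 (ESRP1, ESRP2, RBFOX1 and SRRM4) were too low to be tested. The others gave 27 tested entries in each comparison, because MATR3 is listed under 2 identifiers. Relative to KO, 7 rose and 3 fell with SETD2 C, and relative to SETD2 FL 6 rose and 3 fell, with medians of -0.02 and 0.036, where 36.2 and 38.2% of all genes passed. The split relative to KO was 11 and 1 without scaling and 4 and 6 after GC adjustment, and that relative to SETD2 FL was 10 and 1 without scaling and 5 and 3 after GC adjustment. RAVER1, a cofactor of PTBP1, fell from 29.84 and 27.68 scaled TPM in KO to 20.26 and 18.87 in SETD2 C (-0.54, limma adjusted p = 0.00217), and it was at 30.75 and 34.65 in SETD2 FL (-0.72, limma adjusted p = 0.000605). Both calls of RAVER1 held in all 18 settings. NOVA2 and RBFOX3, which regulate splicing in neurons, and MBNL2 rose relative to KO, by 0.91, 0.65 and 0.45. The calls of NOVA2 and MBNL2 were lost without SETD2 C 2 (adjusted p = 0.0511 and 0.0569). That of RBFOX3 was lost with quantile normalization (0.41, adjusted p = 0.0553), without KO 4 (0.46, adjusted p = 0.0517) and without SETD2 C 1 (0.62, adjusted p = 0.0516). NOVA2 had a low level throughout, at 0.476 and 0.449 in KO and 1.23 and 1.39 in SETD2 C, where the scale understates its change. RBM10 (-0.21) and KHSRP (-0.17) fell relative to KO, in calls that held in 9 and 10 of 18 settings. Without scaling they stood at -0.07 and -0.02 (adjusted p = 0.534 and 0.804). The RBM10 call was also lost without KO 2, SETD2 C 1 or SETD2 C 2, and that of KHSRP without any 1 of the 4 KO and SETD2 C libraries. TIA1 (0.43), NOVA2 (0.65) and MBNL2 (0.41) rose relative to SETD2 FL, and RBM10 (-0.25) and KHSRP (-0.24) fell. TIA1 passed in all 18 settings, MBNL2 in 16, NOVA2 in 13 of the 17 in which it was tested, RBM10 in 11 and KHSRP in 17. NOVA2 was lost with quantile normalization (0.36, adjusted p = 0.147) and without SETD2 FL 3, SETD2 C 1 or SETD2 C 2, and MBNL2 without SETD2 FL 4 or SETD2 C 2. RBM10 was lost without SETD2 FL 4, SETD2 C 1 or SETD2 C 2, and without scaling (-0.12, adjusted p = 0.252), and KHSRP without scaling (-0.11, adjusted p = 0.167). In WT relative to KO, KHDRBS3 was the 1 gene of the list that passed, at 18.28 and 19.93 in WT and 13.28 and 13.35 in KO (0.50, limma adjusted p = 0.0288), a call lost in 5 of 16 settings, among them without scaling (0.38, adjusted p = 0.231) and without KO 1 (adjusted p = 0.117) or KO 2 (adjusted p = 0.159). Of all genes, 4.48% passed in WT relative to KO. None of the list passed in SETD2 FL relative to KO, where 4 had an unadjusted p under 0.05, against 15.9% of all genes. Of the 15 SR genes listed for comparison, 4 rose and 2 fell with SETD2 C relative to KO, where 36.2% of all genes passed. Relative to SETD2 FL, 4 rose and 2 fell, where 38.2% of all genes passed. No SR gene passed in SETD2 FL relative to KO, and 3 had an unadjusted p under 0.05, against 15.9% of all genes. In WT relative to KO 1 rose, where 4.48% of all genes passed. That call was SRSF5 (0.38, limma adjusted p = 0.0403), named after its value was seen. The split with SETD2 C relative to KO was 8 and 0 without scaling and 2 and 2 after GC adjustment, and that relative to SETD2 FL was 7 and 2 without scaling and 3 and 4 after GC adjustment. The SRSF5 call in WT relative to KO was lost with no filter, with eBayes without trend, with all gene types, and without WT 1, KO 1 or KO 2, and without scaling the 1 call of the list was a lower gene.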

How the data were processed

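RNA was sequenced from HEK293T cells, 10 libraries in 5 groups of 2, after ribodepletion and polyA enrichment. The authors aligned reads to hg38 with STAR 2.6.1c, estimated TPM per gene with RSEM 1.3.0 (Ensembl annotation) and deposited TPM, with no counts. TPM is relative to the library total, so a rise in some genes lowers others, and depth is unknown. GENCODE 44 (GRCh38) supplied gene types, coordinates and GC content (58472 genes matched by identifier and 18 by symbol). TPM was scaled by median ratio over lncRNA and protein-coding genes that reached a TPM of 1 in all libraries of a table. The tested genes reached a TPM of 0.5 in 2 or more libraries. Differences of log2(scaled TPM + 0.5) were fitted with limma 3.58.1 (R 4.3.3, eBayes with trend), and a gene was called where its p, adjusted by Benjamini-Hochberg over all tested genes, was 0.05 or less. This scale understates changes of low genes. The 6 libraries of the second table shared a fit, and tables were not compared by test. Procedures were tested on simulated data. Members and lists were chosen with earlier results of these data known. Named were the 10 members, SETD2, the 3 largest rises and falls per comparison and list among called genes with non-overlapping groups, and the 5 genes most like HNRNPL. HNRNPR, HNRNPUL2 and SRSF5 beyond that rule were named after their values were seen, and 1 gene that the rule names is not reported here beyond its part in the counts of its list. In the first table replicate numbers 1 and 2 occur in both groups. Their deviations from the group means correlated at 0.147. With 2 libraries a group this value is the same for both pairs by construction, so it cannot say that the numbers pair the libraries. Alternatives were other pseudocounts, filters, scalings, gene types, eBayes without trend, fits restricted to 2 groups, the replicate block and each library left out. A GC adjustment was added after the data were seen.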

Additional observations from a re-analysis of the deposited data

How the results depend on the processing

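Each value was recomputed under other pseudocounts, filters, scalings, gene types and fits, and with each library left out. The count of members that passed in SETD2 C relative to KO was 2, and it became 1 with no filter, with quantile normalization, with TPM rescaled after leaving out SETD2 and the mitochondrial genes and with all gene types, 0 with eBayes without trend, 4 with GC adjustment, and 0 to 2 with a library left out. In SETD2 C relative to SETD2 FL the count of 0 became 1 without scaling and 3 with GC adjustment. For the 19 other hnRNP genes, the count of 0 in WT relative to KO became 2 without scaling and 0 to 1 with a library left out, and the count of 8 in SETD2 C relative to SETD2 FL became 5 with no filter and 5 to 8 with a library left out. Where a fit left 1 library in a group, that library was assumed to vary like the others. The causes of these changes were not tested.

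With the replicate number as a block in the first table, 0 of the 10 members and 2 of the 19 other hnRNP genes passed in WT relative to KO, and the fit called 825 of all genes higher and 439 lower, where the fit without the block called 467 and 194. No paired analysis was possible because, in the second table, the groups compared share fewer than 2 replicate numbers.

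None of the members that changed direction below had passed the test in the reported fit, and each value is a log2 fold change. After GC adjustment HNRNPLL, HNRNPC and PTBP2 passed as lower in SETD2 C relative to KO, and HNRNPC and PTBP2 did so relative to SETD2 FL. With adjustment for GC content, direction changed for HNRNPLL (0.018) and HNRNPA1 (0.011) in WT relative to KO, and for PTBP2 (-0.003) in SETD2 FL relative to KO. Without scaling, direction changed for PTBP2 (-0.097) in WT relative to KO, and for PTBP1 (0.011) and HNRNPC (0.016) in SETD2 FL relative to KO, and for HNRNPLL (0.022), PTBP1 (0.011), PTBP2 (0.083), HNRNPA1 (0.02), HNRNPA2B1 (0.085), HNRNPC (0.031) and HNRNPD (0.093) in SETD2 C relative to KO, and for HNRNPLL (0.038), PTBP1 (0.001), PTBP2 (0.063), HNRNPA1 (0.08), HNRNPA2B1 (0.091), HNRNPC (0.015) and HNRNPD (0.008) in SETD2 C relative to SETD2 FL. With TPM rescaled after leaving out SETD2 and the mitochondrial genes, direction changed for HNRNPLL (0.027), PTBP1 (0.054), HNRNPA2B1 (0.039) and HNRNPC (0.06) in SETD2 FL relative to KO, and for PTBP2 (0.033), HNRNPA2B1 (0.034) and HNRNPD (0.042) in SETD2 C relative to KO. With quantile normalization, direction changed for PTBP2 (-0.005), HNRNPA1 (0.057) and HNRNPA2B1 (0.017) in SETD2 FL relative to KO, and for HNRNPA1 (0.16), HNRNPA2B1 (0.002), HNRNPC (0.008) and HNRNPD (0.006) in SETD2 C relative to KO, and for HNRNPA1 (0.10) and HNRNPC (0.037) in SETD2 C relative to SETD2 FL. Over the fits leaving out 1 library each, direction changed for HNRNPL (-0.14 to 0.081), HNRNPLL (-0.15 to 0.11), PTBP2 (-0.08 to 0.14), HNRNPA1 (-0.047 to 0.031) and HNRNPC (-0.26 to 0.033) in WT relative to KO, and for PTBP1 (-0.03 to 0.01), PTBP2 (-0.041 to 0.042), HNRNPA2B1 (-0.086 to 0.035), HNRNPC (-0.038 to 0.029) and HNRNPD (-0.011 to 0.14) in SETD2 FL relative to KO, and for HNRNPA2B1 (-0.13 to 0.002) and HNRNPD (-0.13 to 0.019) in SETD2 C relative to KO, and for HNRNPA1 (-0.12 to 0.018) and HNRNPA2B1 (-0.10 to 0.026) in SETD2 C relative to SETD2 FL.

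The median over all genes without scaling was -0.114 in WT relative to KO, 0.023 in SETD2 FL relative to KO and 0.158 in SETD2 C relative to SETD2 FL. With 2 libraries a group, the standard errors of the members were 0.047 to 0.078 in the second table and 0.086 to 0.13 in the first, and differences of that size were not detectable. Larger ones could be missed as well. In simulated data a log2 change of 0.3 was recovered for 17 of 50 genes in SETD2 C relative to KO. For WT relative to KO it was recovered for 11 of 50. Fewer genes were changed in the simulations than were called in the data, where 36.2% passed in SETD2 C relative to KO and 4.48% in WT relative to KO. Adjustment is stricter when fewer genes change, so these counts do not give the rate of misses in the comparisons themselves.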
